A study of Mus musculus with 8 samples.

Results

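Metallothioneins and the genes that sense and move zinc were followed in 8 RNA-seq libraries of mouse erythroid progenitors, cells committed to becoming red blood cells. The 7 genes were Mt1, Mt2, Mtf1, Slc30a1, Slc30a5, Slc39a8 and Slc39a10, out of 37620 gene IDs in the count files, and all 7 were among the 15355 genes that passed the filter on low counts. They were chosen by name, and Mt1 and Mt2 were chosen for their fall with the hnRNPU hairpins, so their values in that comparison are a description and carry no test. The cells were purified from E14.5 C57BL/6 fetal livers with magnetic beads, and all libraries came from cells kept for 24 h with erythropoietin, the hormone of red cell formation. In the Bloodlinc knockdown, 2 hairpins against the long noncoding RNA Bloodlinc had 1 library each beside 1 control hairpin library. The hnRNPU knockdown had the same layout, with 2 hairpins against Hnrnpu, the gene of a nuclear RNA-binding protein, and a control hairpin library of its own. Overexpression was 1 Bloodlinc vector library beside 1 empty vector library. Nothing in the labels ties the hairpins to separate cultures or embryos, so the p-values rest on a spread between libraries that may be technical.

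Zinc is held at a low free concentration inside cells. Metallothioneins are small proteins that bind zinc and copper through their cysteines. When free zinc rises, the zinc finger factor MTF-1, encoded by Mtf1, binds metal response elements in DNA and switches on Mt1, Mt2 and Slc30a1. Most Slc30 proteins (ZnT) move zinc out of the cytosol and most Slc39 proteins (ZIP) move it in. Maturing red cells need zinc for carbonic anhydrase and for the haem synthesis enzyme encoded by Alad.

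Mt1 and Mt2 are neighbours on mouse chromosome 8. On GRCm38, Mt1 (ENSMUSG00000031765) lies from 94179082 to 94180327 and Mt2 (ENSMUSG00000031762) from 94172664 to 94173568, both on the plus strand, with starts 6418 bases apart. Both were annotated with 3 exons and with 186 coding bases. The coding sequences from GENCODE M21 are printed here because the count of each gene depends on telling them apart. Capitals mark the codons for cysteine, the metal-binding residue.
Mt1: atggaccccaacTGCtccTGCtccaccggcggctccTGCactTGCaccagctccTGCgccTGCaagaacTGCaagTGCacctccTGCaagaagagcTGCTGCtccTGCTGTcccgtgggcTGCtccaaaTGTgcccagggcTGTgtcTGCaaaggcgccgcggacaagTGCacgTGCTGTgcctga
Mt2: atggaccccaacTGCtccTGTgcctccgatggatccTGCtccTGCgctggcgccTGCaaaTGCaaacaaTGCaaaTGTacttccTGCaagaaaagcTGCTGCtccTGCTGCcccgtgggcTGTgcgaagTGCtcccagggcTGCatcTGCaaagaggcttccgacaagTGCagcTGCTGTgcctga
Of 61 codons before the stop, 20 encoded cysteine in each gene, which is 32.8%, and all 20 stood at the same places. The coding sequences shared 148 of 186 bases (79.6%). No stretch of 30 bases of the Mt1 transcripts was found in another annotated gene, and 0.83% of those of Mt2 were shared, with Pip5k1a only.

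The sequence before the start of 3 of the genes is printed because metal response elements are the sites at which MTF-1 acts. RefSeq windows of 300 bases on GRCm38.p6, 250 before to 50 after the start, were matched for all 7 genes. They were searched on both strands for the element's core, written as TGCACNC and TGCGCNC, and the matches in the windows of these genes did not overlap. Only bases that precede both the RefSeq and the GENCODE start are printed, with the cores in capitals, at chr8:94178839-94179081 for Mt1, chr8:94172368-94172617 for Mt2 and chr1:191906531-191906766 for Slc30a1, all on the plus strand.
Mt1 upstream: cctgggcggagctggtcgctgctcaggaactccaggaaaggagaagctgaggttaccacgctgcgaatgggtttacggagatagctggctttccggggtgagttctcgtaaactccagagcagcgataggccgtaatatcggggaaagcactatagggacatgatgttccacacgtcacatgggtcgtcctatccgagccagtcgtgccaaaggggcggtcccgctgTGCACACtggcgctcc
Mt2 upstream: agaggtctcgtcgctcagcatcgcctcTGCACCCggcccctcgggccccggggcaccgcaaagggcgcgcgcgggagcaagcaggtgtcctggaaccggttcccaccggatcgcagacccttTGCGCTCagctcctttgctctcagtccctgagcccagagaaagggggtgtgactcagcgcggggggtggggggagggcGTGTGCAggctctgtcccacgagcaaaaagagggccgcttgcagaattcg
Slc30a1 upstream: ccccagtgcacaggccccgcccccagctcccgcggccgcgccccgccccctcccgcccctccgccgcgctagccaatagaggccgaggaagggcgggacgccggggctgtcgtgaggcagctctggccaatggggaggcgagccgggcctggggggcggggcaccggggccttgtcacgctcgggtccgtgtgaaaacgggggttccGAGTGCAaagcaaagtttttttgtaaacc
The upstream stretches held 1 core for Mt1, 3 for Mt2 and 1 for Slc30a1. Mt1 had a further pair after the RefSeq start, at chr8:94179091-94179115.
Mt1 after the start: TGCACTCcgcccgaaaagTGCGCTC
In whole windows, Mt2 had 4 cores, Mt1 had 3, Slc30a1 had 2 and Slc30a5 had 1. Slc39a8 has 2 RefSeq windows, with 0 and 1 cores, and the windows of Mtf1 and Slc39a10 held 0. Among all 32851 windows of this length, 25.7% held at least 1 core, 7.11% at least 2, 1.97% at least 3 and 0.517% at least 4. A match is a run of letters and not a shown binding site. The windows, and the split into before and after the start, rest on annotated starts. Where transcription starts in these cells was not tested, and cores outside a window were not counted.

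Counts in genes came to 23682993 to 34540691 in 6 libraries, but to 2931627 and 2612916 with hnRNPU hairpins 1 and 2. In those shallow libraries, 89.7% and 86.6% of the counts placed once fell outside genes, while the other 6 had 21.7% to 30.1%. Of the counts in genes there, 32.9% and 23.1% were on IDs without a match in GENCODE M21, against 0.695% to 1.45% in the other 6. Levels are counts relative to the library total (CPM) with edgeR's TMM scaling, whose factors were 0.577 and 0.972 for hnRNPU hairpins 1 and 2, the former the lowest of the 8. On that scale a count of 0 allows up to 0.0654 CPM (3 counts) in the Bloodlinc vector library, 1.18 CPM with hnRNPU hairpin 2 and 1.77 CPM with hnRNPU hairpin 1, the lowest and the highest 2 of the 8 floors, and such floors and all intervals cover counting error only. Hnrnpu had a level of 588 CPM in its control, against 325 and 373 CPM with the hnRNPU hairpins (log2 fold change −0.75, SE 0.58, edgeR adjusted p = 0.73), and 290 CPM in the Bloodlinc control library. Bloodlinc itself had 4.46 CPM in its control, 2.19 and 1.75 CPM with the Bloodlinc hairpins (log2 fold change −1.18, SE 0.81, edgeR adjusted p = 1), 1.26 CPM with the empty vector and 5.46 CPM with the Bloodlinc vector. All 9 erythroid markers were detected in every library, with a summed level of 11440 to 50540 CPM. The 9 hepatocyte markers summed to 0.394 to 2.96 CPM in the 6 hairpin libraries, where 1 to 6 of them were at 0 counts, and to 13.9 and 11.9 CPM in the empty and Bloodlinc vector libraries. The 6 granulocyte markers summed to 36.9 to 91.8 CPM in the 3 libraries of the Bloodlinc knockdown, 880 and 851 CPM in the vector libraries, 1410 CPM in the hnRNPU control library and 7575 and 2989 CPM with hnRNPU hairpins 1 and 2.

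Per kilobase of the principal transcript, the metallothioneins stood far above the transporters. Mt1 had a median of 1073 CPM per kb over the 8 libraries (304 to 3206) and Mt2 one of 626 (285 to 2843). Slc39a8 followed at 37.1 CPM per kb (9.04 to 96.4), then Slc30a5 at 16.2 (8.74 to 23.0), Slc30a1 at 16.1 (4.48 to 36.2), Mtf1 at 9.04 (4.44 to 19.1) and Slc39a10 at 1.76 (1.18 to 10.6). The ranges of Mt1 and Mt2 overlapped each other and no transporter's. Those of Slc39a8, Slc30a5, Slc30a1, Mtf1 and Slc39a10 overlapped each of their neighbours in this order. The brain-type Mt3 and the epithelial Mt4, the other metallothioneins of the cluster, held at most 13 and 2 counts in a library and did not pass the filter.

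Mt1 and Mt2 differed widely between the 3 control libraries. Mt1 was at 780.5 CPM in the Bloodlinc control hairpin library, 1411 CPM in the hnRNPU control hairpin library and 167 CPM with the empty vector. Mt2 was at 389, 1453 and 146 CPM in the same libraries. The highest control exceeded the lowest 8.46-fold for Mt1 and 9.97-fold for Mt2. The same span was 8.59-fold for Slc39a10, 4.91-fold for Slc30a1, 3.14-fold for Mtf1, 1.58-fold for Slc30a5 and 1.29-fold for Slc39a8. Against the Bloodlinc control, the hnRNPU control held 1.81 times as much Mt1 (95% counting interval 1.77 to 1.84) and 3.73 times as much Mt2 (3.64 to 3.82). Each comparison of Mt1 and Mt2 rests on the level of 1 control library.

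With the hnRNPU hairpins, Mt1 was at 398 and 231 CPM (673 and 586 counts) against 1411 CPM (53799 counts) in the control. The log2 fold change of −2.17 is a 4.49-fold lower level, and the single hairpins gave −1.83 and −2.61. Mt2 was at 333 and 250 CPM (563 and 634 counts) against 1453 CPM (55391 counts). Its log2 fold change of −2.32 is 4.99-fold lower, with −2.13 and −2.54 for the single hairpins. Both hairpin libraries lay below both control hairpin libraries for each gene, and above both vector libraries. Against the Bloodlinc control hairpin library in place of their own, the differences shrank to −1.31 for Mt1 and −0.42 for Mt2. Against the mean of the 3 control libraries they were −0.86 and −0.58. The level of Mt2 in the hnRNPU control was the highest of the 8 libraries. In bulk RNA, fewer cells of a type and less RNA per cell cannot be told apart.

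**Figure D1:**
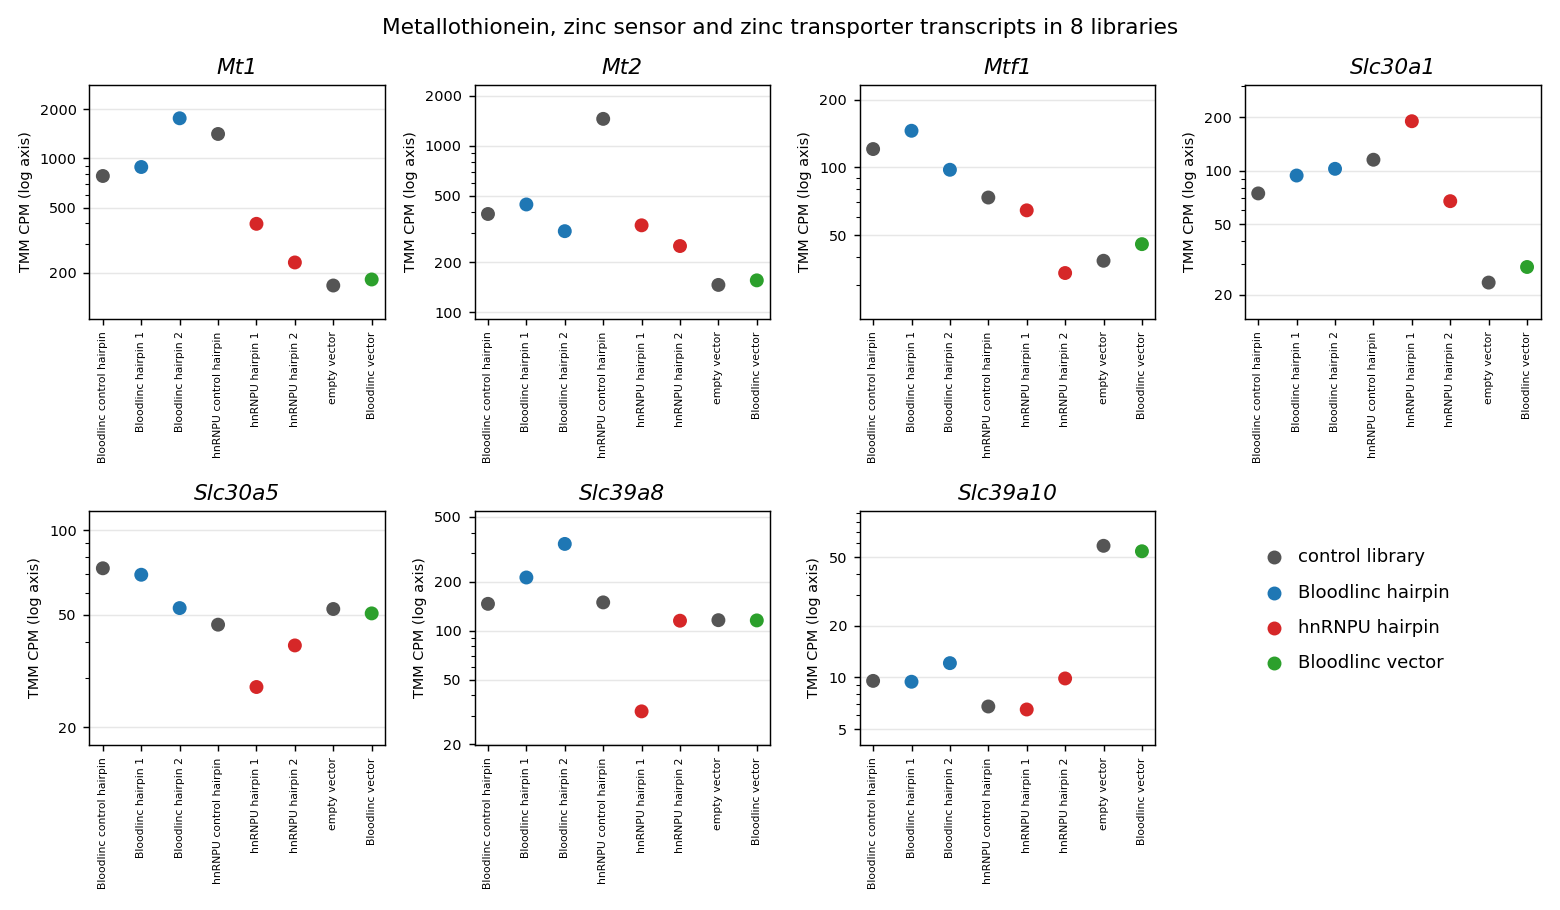
Level of each of the 7 transcripts in each of the 8 libraries, as TMM-scaled CPM on log axes, with 1 point per library, coloured by whether it is a control, a Bloodlinc hairpin, an hnRNPU hairpin or the Bloodlinc vector. Mt1, Mt2 and Slc30a1 lie lowest in the vector libraries, and Slc39a10 lies at 58.1 and 54.0 CPM there against 6.50 to 12.1 CPM in the hairpin libraries.

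Short transcripts had a lower median with the hnRNPU hairpins. The 768 tested genes with a principal transcript under 1 kb, as Mt1 (549 bases) and Mt2 (511 bases) have, had a median log2 fold change of −0.49 there, against −0.09 over all 15355 genes. The part of transcript length in the values of Mt1 and Mt2 was not tested. Nor was that of the granulocyte markers, of which 6 of 6 were higher with the hnRNPU hairpins and 1, Ngp, passed (log2 fold change 2.73, edgeR adjusted p = 0.0151). Over all genes tested, 45.7% had values above 0 there and 0.58% passed as higher. Of the 6 annotated protein-coding genes whose starts lie within 150 kb of Mt1, Mt2 aside, 4 were tested and 0 passed in either knockdown. With the hnRNPU hairpins, Nudt21, an mRNA cleavage factor gene, had a log2 fold change of −1.23 (SE 0.55, edgeR adjusted p = 0.405) and Nup93, a nuclear pore gene, one of −1.08 (SE 0.53, adjusted p = 0.486). The other two, named after their values were seen, had values above 0, at 0.81 for Bbs2 (SE 0.79, edgeR adjusted p = 0.804) and 0.18 for Ogfod1 (SE 0.64, adjusted p = 0.946). At an unadjusted p under 0.05, edgeR gave 2 of the 4 in the hnRNPU comparison and 0 in the Bloodlinc comparison, and DESeq2 gave 0 in both. Over all genes tested, the shares at that unadjusted limit were 9.89% by edgeR and 8.08% by DESeq2 in the hnRNPU comparison, and 3.99% and 2.61% in the Bloodlinc comparison. The counts at an unadjusted p given for other lists have these shares as their background.

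None of the other 5 zinc genes passed in the hnRNPU comparison, where 0.879% of all genes tested did. At an unadjusted p under 0.05, edgeR and DESeq2 each gave 0 of 5. Mtf1 (ENSMUSG00000028890, chromosome 4, 124802104 to 124849800), the zinc sensor, had 73.5 CPM in its control library, and hairpins 1 and 2 gave 64.4 and 33.9 CPM. Its log2 fold change was −0.59 (SE 0.54, edgeR adjusted p = 0.781). Both libraries lay below the 2 control hairpin libraries, and the empty vector library lay between them at 38.4 CPM. No zinc gene had both hnRNPU hairpin libraries above all 3 controls, a pattern of 16.2% of all genes tested.

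The exporters and importers showed no common direction with the hnRNPU hairpins. Slc30a1 (ENSMUSG00000037434, chromosome 1, 191906767 to 191913247), the plasma membrane exporter ZnT1, had 115 CPM in its control library, and hairpins 1 and 2 gave 190 and 67.4 CPM. The hairpins lay on either side of the control, with log2 differences of 0.72 and −0.77, and the fit gave 0.15 (SE 0.55, edgeR adjusted p = 0.946), which turned to −0.78 without hairpin 1. Mt1 and Mt2, chosen for their fall, lay below their control in both hairpin libraries. Slc30a1, another target of MTF-1, lay above it with hairpin 1 and below it with hairpin 2. The part of MTF-1 in these values was not tested. Slc30a5 (ENSMUSG00000021629, chromosome 13, 100802648 to 100833427), the secretory pathway transporter ZnT5, had 46.2 CPM in its control library, and hairpins 1 and 2 gave 27.8 and 39.0 CPM, on 47 and 99 counts. Both libraries lay below all 3 controls, as they did for 21.9% of all genes tested, and the log2 fold change was −0.46 (SE 0.54, edgeR adjusted p = 0.834).

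Slc39a8 (ENSMUSG00000053897, chromosome 3, 135825279 to 135888572), the importer ZIP8 of zinc and manganese, had 149 CPM in its control library, and hairpins 1 and 2 gave 31.9 and 115 CPM, on 54 and 292 counts. The fit gave a log2 fold change of −1.01 (SE 0.55, edgeR unadjusted p = 0.0683, adjusted p = 0.559). The single hairpins differed widely, at −2.22 and −0.37, and without hairpin 1 the value was −0.38. Hairpin 2 lay just below the lowest control, the empty vector, at 116 CPM. Slc39a10 (ENSMUSG00000025986, chromosome 1, 46807544 to 46892852), the importer ZIP10, had 258 counts (6.77 CPM) in the control and only 11 and 25 counts (6.50 and 9.85 CPM) with the hairpins. Counting error alone spans 0.474 to 1.75 and 0.925 to 2.2 times the control for hairpins 1 and 2, so a change within these limits was not detectable at this depth. The log2 fold change was 0.29 (SE 0.62, edgeR adjusted p = 0.916).

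**Figure D2:**
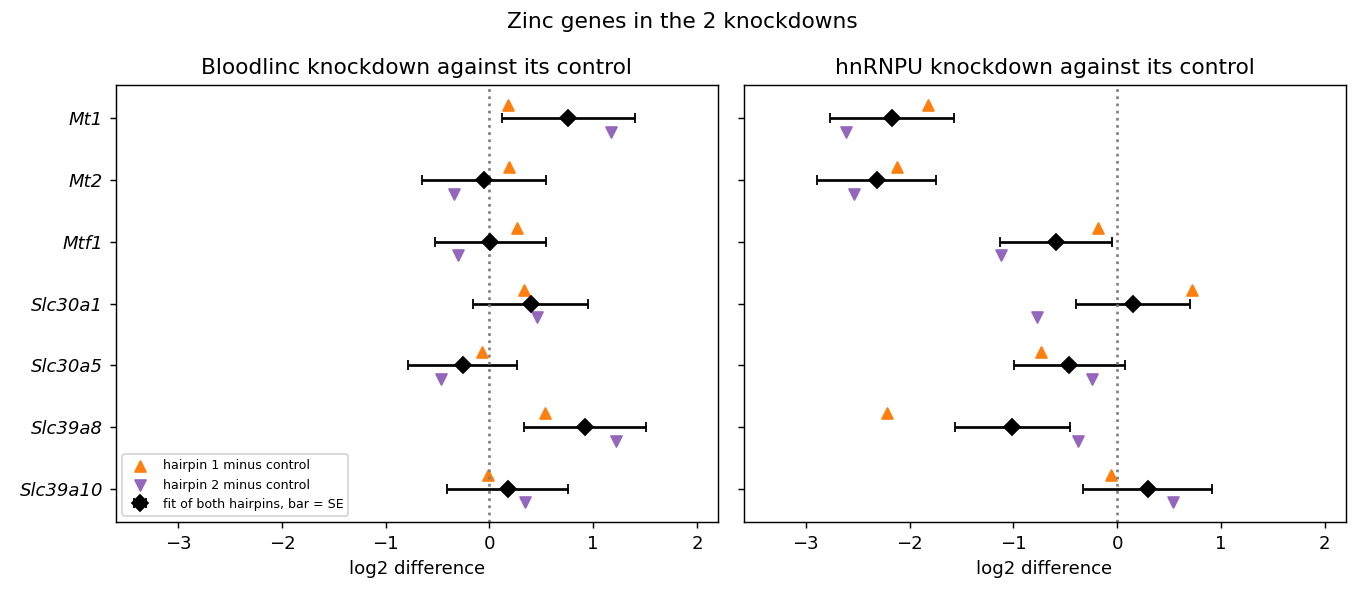
Log2 difference from the control hairpin library for each gene in the Bloodlinc and hnRNPU knockdowns. Diamonds are the fitted values of both hairpins with bars of 1 SE, and triangles are the single hairpins. The bars of Mt1 and Mt2 in the hnRNPU knockdown are not to be read as a test. The hairpins of hnRNPU share a sign for Mt1 and Mt2, which were chosen on this comparison, and for Mtf1, Slc30a5 and Slc39a8, and lie on either side of 0 for Slc30a1 (0.72 and −0.77) and Slc39a10.

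In the Bloodlinc knockdown none of the 7 genes passed, where 0.124% of all genes did. All 7 had an edgeR adjusted p of 1, and edgeR and DESeq2 each gave 0 of 7 at an unadjusted p under 0.05. The median log2 fold change of the 7 was 0.17, beside 0.06 over all genes tested. Mt1 had 780.5 CPM in its control library, and hairpins 1 and 2 gave 886 and 1760 CPM. The hairpins gave 0.18 and 1.17, and the fit 0.76 (SE 0.64). Mt2 had 389 CPM in its control library, and hairpins 1 and 2 gave 444 and 307 CPM, a log2 fold change of −0.05 (SE 0.60) that turned to 0.19 without hairpin 2. Against the hnRNPU control hairpin library in place of its own, Mt1 was at −0.09 and Mt2 at −1.95. No test is given for these values, since both genes were chosen for their level in that control. Of the 15 alternative settings, 0 brought a tested value of the 7 genes past the threshold in either knockdown.

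The balance of Mt1 to Mt2 differed between libraries and was furthest to the side of Mt1 in 1 of them. Within a library, the ratio of Mt1 to Mt2 counts needs no scaling between libraries. It was 2.005 in the Bloodlinc control hairpin library (95% counting interval 1.95 to 2.06) and 1.99 with Bloodlinc hairpin 1 (1.95 to 2.04). With Bloodlinc hairpin 2 it was 5.73 (5.61 to 5.86), on 54281 and 9469 counts. The ratio was 1.14 with the empty vector, 1.17 with the Bloodlinc vector, 0.971 in the hnRNPU control and 1.19 and 0.924 with hnRNPU hairpins 1 and 2. Bloodlinc hairpin 2 thus stood outside the range of the other 7 libraries, 0.924 to 2.005, and Bloodlinc hairpin 1 did not. The other 7 were not alike either. The intervals of the Bloodlinc control and Bloodlinc hairpin 1 lay above those of the vector libraries and of the hnRNPU control (0.960 to 0.983). The 2 hairpins target the same RNA, and the difference between them has no replicate. The summed level of both genes ran from 313 CPM with the empty vector to 2864 CPM in the hnRNPU control, a span of 9.16-fold.

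**Figure D3:**
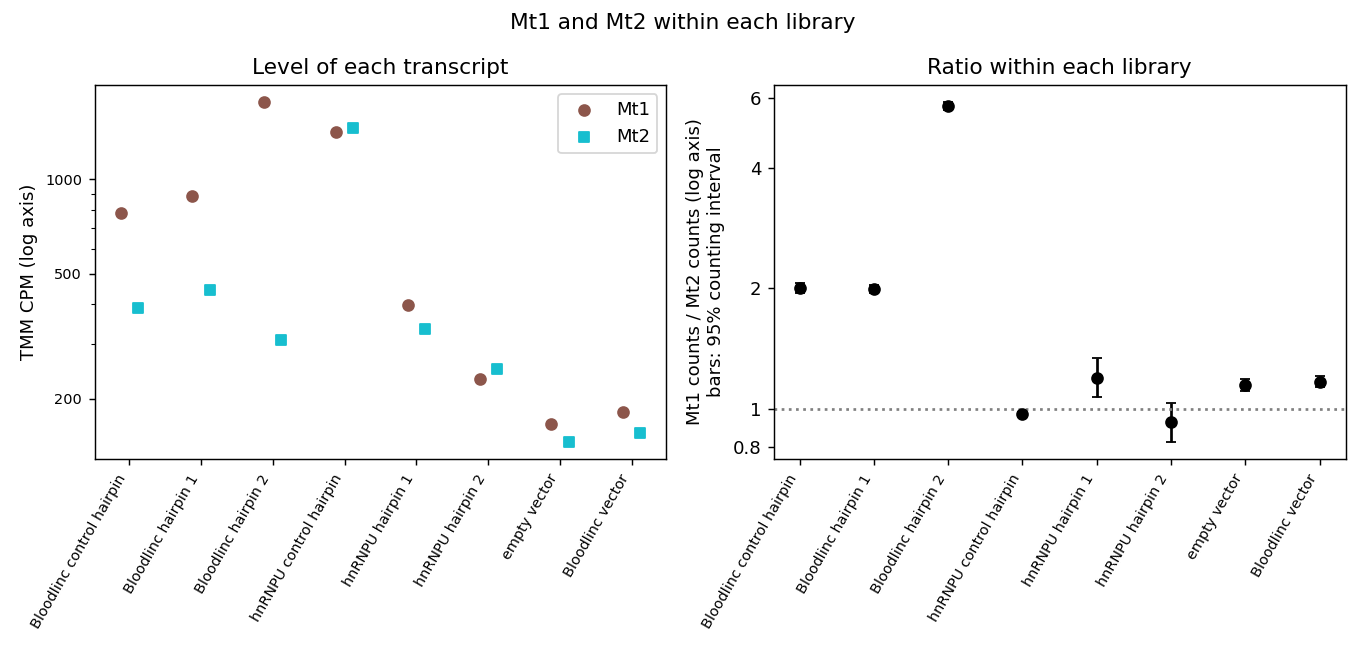
Left, level of Mt1 and Mt2 in each library, as TMM-scaled CPM on a log axis; right, the ratio of their counts within each library on a log axis with its 95% counting interval. Bloodlinc hairpin 2 lies at 5.73, and the other 7 libraries lie between 0.924 and 2.005.

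Slc39a8 was the 1 zinc gene for which both Bloodlinc hairpins lay above all 3 controls, as they did for 10.9% of all genes tested. None of the 7 had both below, as 11.3% of all genes did. Slc39a8 had 146 CPM in its control library, and hairpins 1 and 2 gave 212 and 341 CPM, against 149 and 116 CPM in the other controls. Its log2 fold change was 0.92 (SE 0.59, edgeR unadjusted p = 0.118, adjusted p = 1), with 0.54 and 1.22 for the single hairpins. The value stayed between 0.54 and 1.25 over the alternatives, and did not pass in any of them. The 9 erythroid markers summed to 50540 CPM in the Bloodlinc control and to 29520 and 22500 CPM with hairpins 1 and 2. All 9 had fitted values below 0, as did 6850 of the 15355 genes tested. The part of the erythroid markers in the values of Slc39a8 was not tested.

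The remaining zinc genes lay close to the Bloodlinc control. Slc30a1 had 74.5 CPM in its control library, and hairpins 1 and 2 gave 93.9 and 102 CPM (log2 fold change 0.40, SE 0.55). Slc30a5 was at 73.2 CPM against 69.4 and 52.9 CPM (−0.26, SE 0.53). Mtf1 was at 121 CPM against 146 and 97.7 CPM, on either side of the control (0.01, SE 0.54). Slc39a10 was at 9.53 CPM against 9.42 and 12.1 CPM (0.18, SE 0.58). These differences are smaller than their standard errors.

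Overexpression of Bloodlinc left the 7 genes within 2-fold of the empty vector, a limit that 1.75% of all genes tested exceeded. With 1 library in each arm there is no replicate check and no test. Slc30a1 was at 23.5 CPM with the empty vector and 28.7 CPM with the Bloodlinc vector, a ratio of 1.22 (95% counting interval 1.13 to 1.33). Mtf1 went from 38.4 to 45.6 CPM, a ratio of 1.19 (1.11 to 1.27). Mt1 was at 167 and 182 CPM, with a ratio of 1.09 (1.05 to 1.12), and Mt2 at 146 and 155 CPM, with a ratio of 1.06 (1.03 to 1.10). The intervals of Slc30a1, Mtf1, Mt1 and Mt2 exclude 1, but they cover counting error only and leave out the spread between cultures. The share of all genes tested whose interval excludes 1 was not taken, so no common response is read from these ratios. Slc39a10 had a ratio of 0.929 (0.878 to 0.983). The intervals of Slc30a5 (0.909 to 1.02) and Slc39a8 (0.958 to 1.04) include 1.

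The vector libraries and the hairpin libraries differed for 4 of the 7 genes without overlap. Slc39a10 was at 58.1 and 54.0 CPM in the 2 vector libraries (2402 and 2473 counts) and at 6.50 to 12.1 CPM in the 6 hairpin libraries, a mean 6.21-fold higher. The vector libraries lay above all 6 hairpin libraries for 16.7% of all genes tested. In the other direction, which held for 10.6% of genes, stood Mt1, Mt2 and Slc30a1. Mt1 averaged 174 CPM in the vector libraries, a level that the mean of the hairpin libraries exceeded 5.23-fold. The same ratio was 3.52 for Mt2 and 4.11 for Slc30a1. The ranges of Mtf1, Slc30a5 and Slc39a8 overlapped between the 2 kinds of library. Vector and hairpin libraries are not groups that the design compares, and what else differed between them (batch, vector, culture) cannot be told apart from the vectors. The hepatocyte markers were also higher in the vector libraries, as given above, and their part in these levels was not tested.

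The 20 other zinc transporter genes of the Slc30 and Slc39 families included 16 that were tested. In either knockdown 0 of the 16 passed, and edgeR and DESeq2 each gave 1 at an unadjusted p under 0.05 in each knockdown, beside 3.99% and 2.61% of all genes in the Bloodlinc and 9.89% and 8.08% in the hnRNPU comparison. Per kilobase, Slc30a9 and Slc30a10 had the highest medians of them, at 20.6 and 19.5 CPM per kb. Slc30a10, a manganese exporter of the family, was at 351, 309 and 258.5 CPM in the Bloodlinc control and hairpin libraries. It had 139 CPM in the hnRNPU control library, and the hnRNPU hairpins gave 21.9 and 76.8 CPM (log2 fold change −1.48, SE 0.55, edgeR adjusted p = 0.259). It passed against the Bloodlinc control hairpin library (−2.82, edgeR adjusted p = 2.49e-05) and against the mean of the 3 controls (−1.65, adjusted p = 0.00657), so its call turns on the control chosen. Slc30a9, at 355 to 417 CPM in the Bloodlinc knockdown libraries, had 133 CPM in the hnRNPU control library, and the hnRNPU hairpins gave 80.4 and 102 CPM (−0.54, SE 0.56, adjusted p = 0.814). Both were at 45.4 to 89.0 CPM in the vector libraries. Slc39a1, the highest of the other Slc39 importers, had a median of 5.57 CPM per kb and a range of 7.68 to 23.0 CPM. In the Bloodlinc knockdown, 9 of the 10 other Slc39 genes tested had fitted values above 0, with a median of 1.06 and 0 that passed. Over all genes tested, 53.5% were above 0 and the median was 0.06. The list's median includes genes near the floor, such as Slc39a2 with 1 count in the control and 4 and 2 with the hairpins. In the hnRNPU knockdown their median was −0.20. Slc39a1 had a log2 fold change of 1.02 (SE 0.64, edgeR adjusted p = 1) with the Bloodlinc hairpins and Slc39a9, a Golgi importer, one of 0.20 (SE 0.63, adjusted p = 1). In CPM the vector libraries lay above all hairpin libraries for 6 of the 16, beside 16.7% of all genes, and below all of them for Slc30a9 and Slc39a3, beside 10.6%. Among the 6, Slc30a6, Slc39a6 and Slc39a9 had 9 to 28 counts in the hnRNPU hairpin libraries, and Slc39a2, Slc30a4 and Slc39a14 had 0 to 11. For Slc39a2 the vector libraries, at 0.726 and 0.699 CPM, lay under the floors of those libraries, so no order is shown there. For Slc30a4 they lay, at 1.69 and 1.40 CPM, under the floor of hnRNPU hairpin 1 at 1.77 CPM, and no order is shown there either. For the rest of the 6 the order rests in part on these few counts, for which no counting interval was taken.

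**Figure D4:**
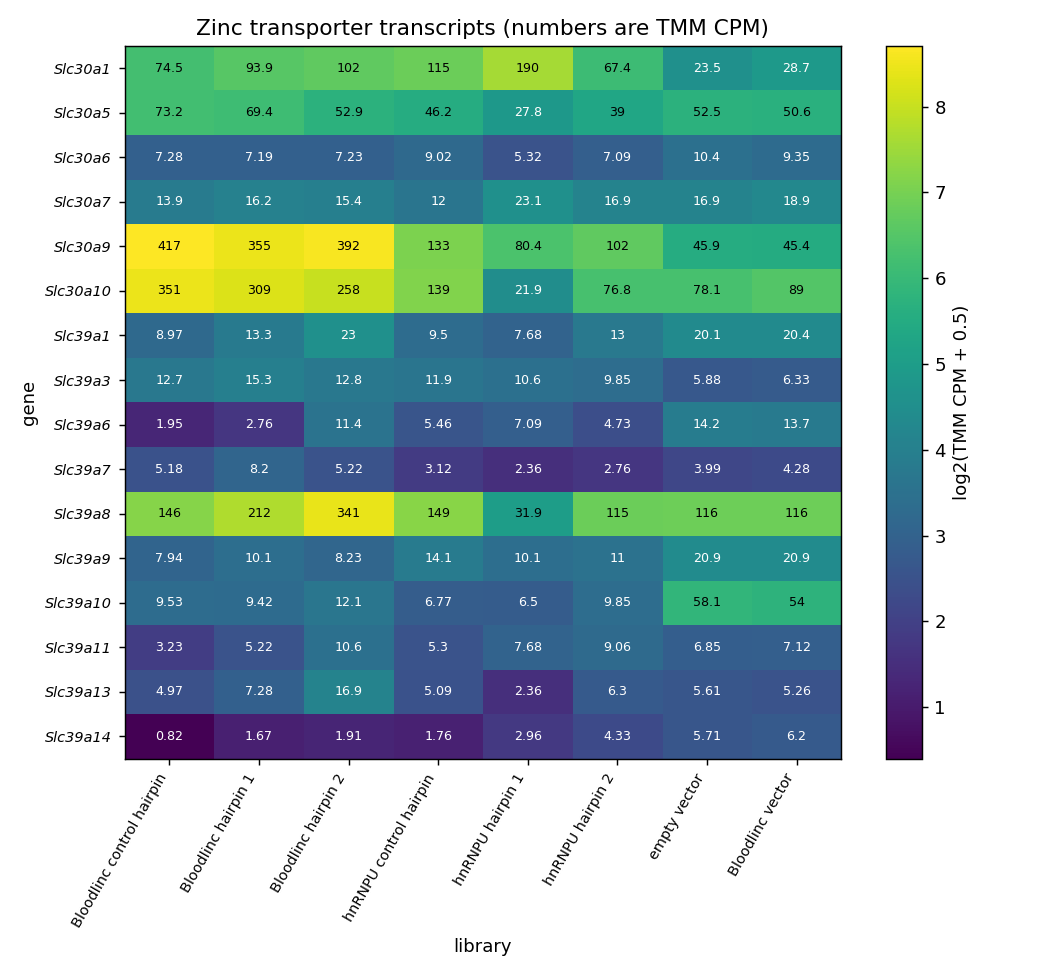
Level of the 16 Slc30 and Slc39 genes with a mean of at least 1 CPM in each of the 8 libraries, printed as TMM-scaled CPM and coloured by log2(CPM + 0.5). Slc30a9, Slc30a10 and Slc39a8 reach the highest CPM, and Slc39a10 is high in the 2 vector libraries (58.1 and 54.0 CPM).

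Genes of related pathways mostly did not pass. The 9 copper-handling genes, several of which feed the same metallothioneins or copper enzymes, had medians of 0.18 in the Bloodlinc and −0.51 in the hnRNPU knockdown with 0 passing (at an unadjusted p under 0.05, 0 in the Bloodlinc comparison by edgeR and DESeq2). In the hnRNPU comparison 3 stood under that unadjusted limit by edgeR and 2 by DESeq2, where 9.89% and 8.08% of all genes did. By edgeR they were Slc31a2 (log2 fold change 2.12, SE 0.795) and Atp7a (1.61, SE 0.59), above 0, and Atp7b (−1.405, SE 0.549), below 0. All 3 were named after their values were seen. Of the 9 genes, 2 had fitted values above 0 there and 7 below. Cox17, the copper chaperone of cytochrome oxidase, had 57.5 CPM in the hnRNPU control library, and the hnRNPU hairpins gave 29.0 and 33.5 CPM (log2 fold change −0.88, SE 0.53, edgeR adjusted p = 0.629). Sod1, the copper-zinc superoxide dismutase gene, stayed between 91.6 and 158 CPM over the 8 libraries. Metallothioneins are also induced by oxidative stress and by glucocorticoids. Of 8 oxidative stress genes, 1 rose with the hnRNPU hairpins, as 0.58% of all genes tested did, and 0 fell, and 0 passed in the Bloodlinc knockdown (2 at an unadjusted p under 0.05, by edgeR and by DESeq2, beside 3.99% and 2.61% of all genes). At that limit the hnRNPU comparison had 2 by edgeR and 1 by DESeq2, beside 9.89% and 8.08% of all genes. The 2 by edgeR were the gene that passed and, below 0, Nqo1 (log2 fold change −1.18, SE 0.53), named after its values were seen. Of the 8 genes, 5 had fitted values above 0 there and 3 below, with a median of 0.13. The gene that rose was Hmox1, haem oxygenase 1, with 166 CPM in the control and 1335 and 487 CPM with hairpins 1 and 2 (a log2 fold change of 2.45, SE 0.67, edgeR adjusted p = 0.0389). It also stood at 273 and 219 CPM in the vector libraries, and it no longer passed when any 1 of the 4 hairpin libraries was left out (edgeR adjusted p from 0.0575 to 1). Its log2 fold change was then 1.54 and 3.001 without hnRNPU hairpin 1 and 2, and 2.42 and 2.47 without Bloodlinc hairpin 1 and 2. Hmox1 was higher and Mt1 and Mt2 lower in the same hnRNPU hairpin libraries. Macrophages, which express Hmox1, have 6 markers in the list, whose sum was 236 CPM in the hnRNPU control and 1546 and 472 CPM with the hairpins. Most of that sum was Lyz2, lysozyme, which granulocytes also express, at 216 CPM in the control and 1472 and 443 CPM with the hairpins. Of the 6 markers, 5 had fitted values above 0 with the hnRNPU hairpins and 0 below, where 45.7% of all genes tested were above 0. The macrophage receptor gene Csf1r was at 12.5, 44.9 and 13.0 CPM in the control and with hairpins 1 and 2. Adgre1 was at 4.64, 17.1 and 11.4 CPM, and Cd68 at 3.15, 12.4 and 3.55 CPM. The complement gene C1qa had 0 counts in these 3 libraries, and C1qb had 2, 0 and 2. The part of these cells in the level of Hmox1 was not tested.

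Of 8 glucocorticoid-induced genes, 0 passed in either knockdown, with medians of 0.55 and 0.56 in the Bloodlinc and hnRNPU comparisons. At an unadjusted p under 0.05, edgeR gave 2 and 1 of the 8 and DESeq2 gave 1 and 1, beside 3.99% and 9.89% of all genes by edgeR and 2.61% and 8.08% by DESeq2. Tsc22d3, a classical target of the glucocorticoid receptor, had 23.0 CPM in the hnRNPU control library, and the hnRNPU hairpins gave 52.6 and 33.9 CPM (log2 fold change 0.90, SE 0.57, edgeR adjusted p = 0.65). Dusp1, a phosphatase gene, had 73.2 CPM in the Bloodlinc control library, and the Bloodlinc hairpins gave 27.0 and 32.8 CPM (−1.29, SE 0.52, adjusted p = 0.894). It was the 1 gene of the 8 below 0 there, and 7 were above 0. The other genes under the unadjusted limit by edgeR, named after their values were seen, were also above 0. They were Zbtb16 (2.11, on 6 counts in the control) with the Bloodlinc hairpins and Sgk1 (2.04) with the hnRNPU hairpins. Of 3 zinc enzyme genes of red cells, 0 passed, with medians of −0.43 and −1.16. At an unadjusted p under 0.05, edgeR gave 0 and 1 of these and DESeq2 gave 0 and 2, against the same shares of all genes. Car2, carbonic anhydrase 2, had 3729 CPM in the hnRNPU control library, and the hnRNPU hairpins gave 1680 and 1650 CPM (log2 fold change −1.16, SE 0.67, edgeR adjusted p = 0.597). Alad was at 604 CPM in that control and at 132 and 256 CPM with these hairpins (−1.63, SE 0.58, adjusted p = 0.208).

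Likeness to Mt1 and Mt2 was measured as the root mean square difference between centred log2 levels and the mean of the 2 genes, over 8326 protein-coding genes with a mean of at least 5 CPM. Over all 8 libraries the closest were Josd2 (0.413), Pigq (0.416), Atg4d (0.417), Dmtn (0.444) and Rab3il1 (0.449). Over the 6 libraries without the hnRNPU hairpins they were Fam53b (0.329), Josd2 (0.346), Slc30a1 (0.348), Ssh1 (0.353) and Fam117a (0.355). Slc30a1 thus ranked 3 of 8326 without the hnRNPU hairpins and 388 with them. The 6 libraries keep the hnRNPU control, whose level entered the choice of Mt1 and Mt2, so neither rank is free of that choice. The ranks of Mtf1 were 766 and 300, those of Slc39a8 1714 and 4067, and those of Slc30a5 4183 and 3543. Slc39a10 was among the least alike, at 8171 and 7971. Mt1 and Mt2 themselves lay 0.817 apart over 8 libraries and 0.860 over 6. That is a distance from gene to gene and not to their mean, so it does not compare with the values above. The libraries share their scaling and the contrast of vector with hairpin libraries, which weighs on all these distances.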

How the data were processed

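Per the labels' protocols, RNA without ribosomal RNA went into dUTP-marked, strand-specific libraries for a HiSeq2000. The submitters' processing notes name TopHat2 2.0.11, mm9 and HTSeq. The HTSeq version, annotation release and strand setting are not given in the sources used here. The authors deposited raw counts per Ensembl ID, 1 file per library. Symbols, lengths and positions came from GENCODE M21 on GRCm38 (87.4% of IDs matched), which was not used for counting. Mt2, Mtf1, Slc30a1, Slc39a8 and Slc39a10 overlap other annotated genes, whose reads may have been left out or shared.

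All 8 libraries in 6 groups entered 1 model in edgeR 4.0.16 (R 4.3.3), with TMM scaling, filterByExpr and quasi-likelihood F-tests, Benjamini-Hochberg adjusted over 15355 genes at a threshold of 0.05. Its 2 residual degrees of freedom came from the hairpin pairs, each single control was assumed to vary like them, and a prior of 397 degrees of freedom drew each gene's spread to the trend. An SE is the log2 fold change divided by the square root of F. Single-library differences used a prior count of 2, and count ratios carry exact conditional binomial intervals at 95%. Per-kilobase levels used the principal transcript. The fit was tested on simulated data.

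The genes, lists and tests were chosen with earlier results of these data known. From each list, up to 3 passing genes of the largest change were named, or else up to 2 of the highest mean CPM. Genes marked as named after their values were seen stand outside this rule and outside the counts over the alternatives. Of the named genes only the level is given for Sod1. Ngp, from the granulocyte markers, is the marker that passed. Alternatives were DESeq2 1.42.0 and its size factors, upper quartile scaling, other filters, other controls, thinning, fewer libraries, a replicate block, a prior count of 0.5 and removal of mitochondrial ribosomal RNA with unannotated IDs.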

Additional observations from a re-analysis of the deposited data

How the results depend on the processing

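Of 210 values for the 7 genes in the 2 knockdowns, 188 kept direction and side of the threshold, 17 changed sign, 5 of Mt1 and Mt2 moved by more than the spread between hairpins, and 0 of the tested newly passed. For the other named genes 329 of 360 kept both, 14 changed sign, 9, all of Hmox1, no longer passed and 8 newly passed, all in the hnRNPU knockdown. With the other control these were Cox17 −1.46, Nudt21 −1.76, Alad −2.03, Slc30a9 −2.19, Car2 −2.50 and Slc30a10 −2.82, and with 3 controls Nudt21 −1.39 and Slc30a10 −1.65. In the Bloodlinc knockdown 19 genes passed, against 5 with DESeq2, 1043 with the other control hairpin library, 918 with the mean of 3 controls, and 0 each with a filter of 5 CPM in 2 libraries, with thinning to the shallowest library, with 3 libraries alone and with a replicate block (278, 303, 369 and 410 at an unadjusted p under 0.05). Leaving out a hairpin library gave 0 to 63, with 0 without Bloodlinc hairpin 2, hnRNPU hairpin 1 or hnRNPU hairpin 2, and 63 without Bloodlinc hairpin 1. In the hnRNPU knockdown 135 passed, against 8 with the 5 CPM filter, 2340 with the other control, 1497 with 3 controls, 0 with thinning (955 unadjusted) and 61 with the replicate block. Leaving out a library gave 7 to 121, with 7 without hnRNPU hairpin 1 and 59 without hairpin 2. The split of 89 higher and 46 lower became 126 and 38 with DESeq2's size factors and 130 and 33 with upper quartile scaling, which moved the median of all genes by 0.12 and 0.16. In the overexpression pair 269 genes passed 2-fold, 615 with a prior count of 0.5 and 2505 against 3 controls.

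Signs turned as follows, on the log2 scale. In the Bloodlinc knockdown the other control gave Mt1 −0.094, Slc30a1 −0.23, Slc30a5 0.40, Slc30a9 1.49, Slc30a10 1.03, Slc39a9 −0.62, Nudt21 0.076 and Car2 0.64. The mean of 3 controls gave Slc30a5 0.12, Slc39a10 −0.53, Slc30a9 1.45, Slc30a10 0.86, Slc39a9 −0.54, Car2 0.82 and Alad 0.59. Mtf1, near 0, was at −0.016 with DESeq2, its size factors or the replicate block, at −0.0013 without a filter and at −0.28 and 0.27 without Bloodlinc hairpin 1 or 2. Thinning gave Mt2 0.0032. Leaving out Bloodlinc hairpin 1 or 2 gave −0.32 or 0.19 for Mt2, 0.37 or −0.016 for Slc39a10 and 0.53 or −0.12 for Nup93. In the hnRNPU knockdown the other control gave Slc39a10 −0.20 and Slc39a9 0.41, and 3 controls gave Slc39a10 −0.91 and Slc39a1 −0.19. Without hnRNPU hairpin 1 or 2, Slc30a1 was at −0.78 or 0.72, Slc39a10 at 0.53 or −0.062 and Slc39a1 at 0.44 or −0.31. The cause was not tested. The replicate block used hairpin numbers, which the controls do not carry, and under it Hmox1 no longer passed (2.30, edgeR adjusted p = 0.0602). Over all alternatives the adjusted p of Hmox1 ran from 2.42e-06 to 1. With 2612916 to 2931627 gene counts, the hnRNPU hairpin libraries limit what can be seen for Slc39a10, Slc30a5 and Slc39a8.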
